A study of Mus musculus with 6 samples.

Results

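Neutrophil granule genes encode the proteases, antimicrobial proteins and iron-binding proteins that neutrophils store in granules, together with the abundant cytosolic proteins of the same cells. They were measured in mouse cortical bone tubes cultured with or without parathyroid hormone (PTH). The 10 genes examined were *Mpo*, *Prtn3*, *Elane*, *Ctsg*, *Ltf*, *Camp*, *Ngp*, *Lcn2*, *S100a8* and *S100a9*, taken by name from 31508 gene symbols on the array. The choice was made with earlier results of these data known. They were read by 14 of its 45281 probes. *Elane*, the neutrophil elastase gene, is listed on this array under its older symbol *Ela2*. Bone tubes came from C57BL6 mice aged 3 months, and are the shafts of tibia and femur whose marrow was flushed out and whose surfaces were digested with collagenase and trypsin. All tubes were first kept overnight in medium with fetal calf serum. The control tubes then stayed untreated and the PTH tubes received PTH 1-34, the active fragment of the hormone, at 250 nM for 24 hours. Each preparation pooled bones of several mice, 3 arrays were made for each group, and the question was how the hormone changed gene expression in osteocytes within their matrix. Neither the labels nor the study's methods say that the replicates were separate groups of animals, so p-values measure the spread between these arrays.

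Neutrophils develop in the bone marrow, and their granules are filled in order. Myeloperoxidase and the serine proteases of the azurophil granules are transcribed early, at the promyelocyte stage. The proteins of the specific granules follow in later precursors, gelatinase granules come after them, and S100A8 and S100A9 fill the cytosol of the maturing cell. Osteocytes, the cells embedded in bone matrix that the tubes were prepared to hold, are not known as a source of the azurophil proteases. In bulk RNA such as this, fewer cells of a type and less RNA per cell cannot be told apart.

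The members lie on 6 chromosomes in the mouse assembly GRCm38.p6, and some are close together. *Prtn3* (chr10:79879667-79883174) and *Elane* (chr10:79886312-79888216) are neighbours 3.1 kb apart. *S100a8* (chr3:90669071-90670034) and *S100a9* (chr3:90692630-90695721) are separated by 22.6 kb. *Camp*, *Ngp* and *Ltf* share chromosome 9, with 570.4 kb between the first pair and 596.3 kb between *Ngp* and *Ltf*. *Mpo* lies on chromosome 11, *Lcn2* on chromosome 2 and *Ctsg* on chromosome 14.

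The early and late groups are shown next by their promoters, as a description. A link between promoter letters and the changes given below was not tested. PU.1 and the C/EBP factors are known regulators of granule genes, and letters of the kind they bind were searched on both strands of the 250 bases before each start in RefSeq (GRCm38.p6). The string GAGGAAGT stood before *Mpo*, *Prtn3* and *Elane* of the early genes and before *S100a8*, and before 2.44% of the 32851 promoters in the table. The first set shows these 3 early genes, 5′ to 3′, with GAGGAAGT in capitals. *Ctsg*, the other early gene, did not hold this string, and *Elane* was at background on every array. Their windows are chr11:87793534-87793783 for *Mpo*, chr10:79879417-79879666 for *Prtn3* and chr10:79886062-79886311 for *Elane*, all on the plus strand.
Mpo: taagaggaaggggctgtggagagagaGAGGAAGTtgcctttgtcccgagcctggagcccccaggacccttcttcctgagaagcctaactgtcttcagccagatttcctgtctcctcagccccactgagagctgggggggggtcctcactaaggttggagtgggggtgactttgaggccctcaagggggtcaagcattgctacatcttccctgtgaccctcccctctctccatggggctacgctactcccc
Prtn3: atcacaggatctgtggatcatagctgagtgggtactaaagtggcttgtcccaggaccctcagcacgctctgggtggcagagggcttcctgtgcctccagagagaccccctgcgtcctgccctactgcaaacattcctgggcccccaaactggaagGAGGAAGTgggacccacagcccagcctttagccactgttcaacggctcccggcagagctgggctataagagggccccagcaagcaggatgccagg
Elane: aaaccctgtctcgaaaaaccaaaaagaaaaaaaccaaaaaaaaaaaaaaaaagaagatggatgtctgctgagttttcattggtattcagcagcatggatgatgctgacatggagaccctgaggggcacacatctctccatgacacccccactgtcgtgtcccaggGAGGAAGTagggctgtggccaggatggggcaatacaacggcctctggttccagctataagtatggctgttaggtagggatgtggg

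The string TTGCNNAA stood before *Ltf*, *Ngp* and *Lcn2* of the specific granule genes and before *S100a9*, and before 9.56% of all promoters. The second set shows these 3 specific granule genes with the match, on either strand, in capitals. Their windows are chr9:111019042-111019291 for *Ltf* and chr9:110419558-110419807 for *Ngp*, both on the plus strand, and chr2:32387740-32387989 on the minus strand for *Lcn2*.
Ltf: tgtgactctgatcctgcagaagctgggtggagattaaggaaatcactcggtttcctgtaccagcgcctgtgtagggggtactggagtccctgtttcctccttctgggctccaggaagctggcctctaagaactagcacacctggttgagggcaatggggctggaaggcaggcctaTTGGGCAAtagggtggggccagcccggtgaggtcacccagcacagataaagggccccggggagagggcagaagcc
Ngp: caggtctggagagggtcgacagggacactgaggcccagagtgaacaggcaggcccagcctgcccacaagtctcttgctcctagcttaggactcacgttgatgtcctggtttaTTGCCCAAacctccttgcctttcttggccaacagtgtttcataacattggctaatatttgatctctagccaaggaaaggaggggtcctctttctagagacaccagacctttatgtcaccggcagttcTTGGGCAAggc
Lcn2: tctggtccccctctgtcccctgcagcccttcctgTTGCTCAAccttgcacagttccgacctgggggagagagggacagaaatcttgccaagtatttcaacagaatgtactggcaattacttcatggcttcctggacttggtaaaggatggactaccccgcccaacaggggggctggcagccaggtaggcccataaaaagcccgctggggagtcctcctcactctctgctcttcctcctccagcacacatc

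These strings were picked for display out of 7 after the matches had been counted, so the sharing is a description and no test was made of it. The others overlap them in part. GAGGAA stood before 7 of the 10 members and 23.3% of all promoters, and GGAAGT before 6 members and 19.7%. TTNNGNAA stood before 5 members and 36.8% of promoters, TGTGGT, a string of the RUNX type, before *S100a9* and *Ctsg* and 4614 of the promoters, and TTGCGNAA before 0 members and 0.67%. *Camp* held none of the strings in this window. A match of letters is not a site of binding, and no match says only that these letters are not in the window.

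The deposited values were linear signal intensities with a detection p-value for each probe. An array had 34.2% to 38.4% of its probes above background, taken as a detection p under 0.05. Signals were background corrected, quantile normalized and put on a log2 scale, so each level below is a normalized log2 signal, and levels of different probes were not compared. The limma test took in the probes above background on 3 or more of the 6 arrays. These were 16214 probes of 11979 genes, and a gene was read by its brightest probe. A gene was called at an adjusted p under 0.05 and a fold change of at least 1.5. With 3 arrays against 3, the smallest p that an exact permutation test of 1 gene allows is 0.1.

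Granule gene signal was lower in PTH-treated than in control bone tubes. Of the 10 genes 9 were tested. The PTH mean was below the control mean for all 9, and 6 passed the test as lower (*Mpo*, *Prtn3*, *Ctsg*, *Ltf*, *Ngp* and *Lcn2*), against 1.04% of all genes tested. No member was called higher, against 0.685% of all genes. The median log2 difference over the 9 members was -0.84, a 1.79-fold lower signal, while the median over all genes tested was 0.01 and the lower quartile -0.16. For 8 of the 9 members all PTH arrays were lower than all control arrays, which held for 10.8% of all genes. By the same fold change and an unadjusted p under 0.05, 7 members were lower, against 2.73% of all genes. All 9 tested genes were above background on all 6 arrays, so none entered the test through the control arrays alone. Averaged over the 9 members, the level was 11.53, 11.59 and 11.58 in control tubes and 10.76, 10.84 and 10.84 with PTH. The calls rest on the scaling and the model. When arrays were scaled to a common median instead, all 9 means stayed lower and 0 members were called. The whole set of genes then gave 41 lower and 63 higher calls, in place of 125 and 82. With the replicate number as a block 0 members were called as well, and the whole set gave 25 lower and 19 higher calls. With any 1 of the 6 arrays left out, 1 to 3 members were called, *Ctsg* among them each time, and the genes called lower overall fell from 125 to between 28 and 54.

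**Figure D1:**
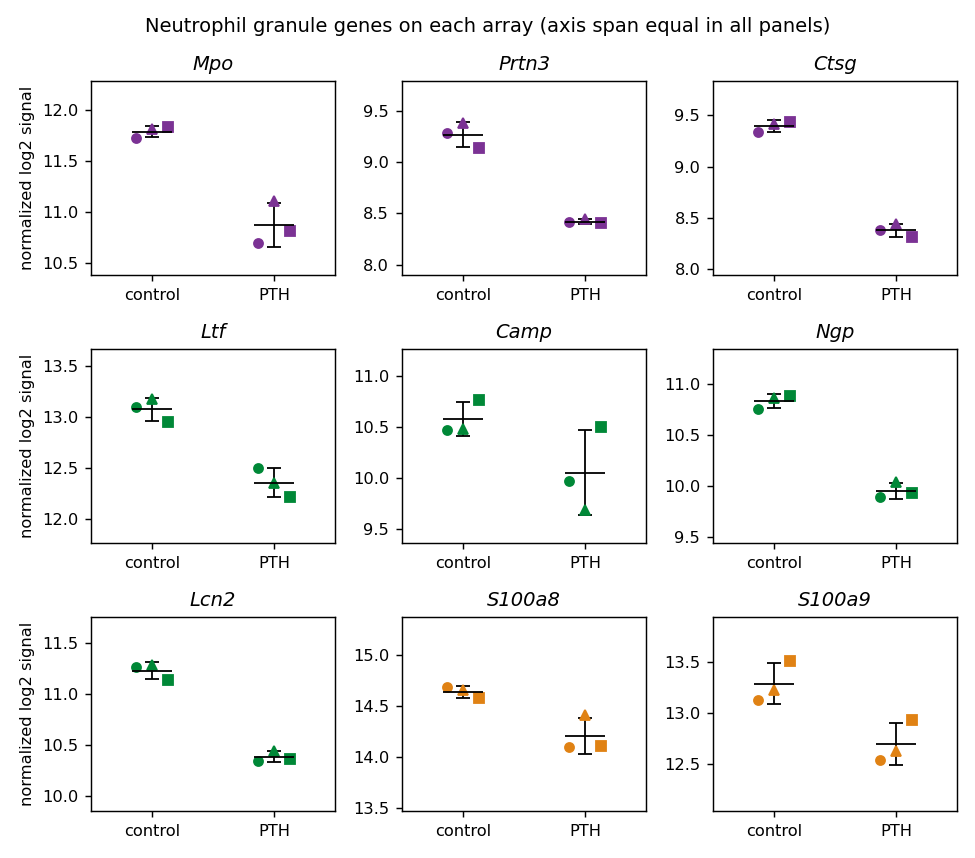
Normalized log2 signal of the 9 tested granule genes on each of the 3 control and 3 PTH arrays, 1 panel a gene, with circles, triangles and squares for arrays 1, 2 and 3 and bars for the mean ± SD. The groups overlap only for *Camp*, where PTH array 3 reached 10.50.

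The early genes gave the largest mean change of the 3 groups of members. All 3 tested early genes passed the test, against 1.04% of all genes tested, with a mean log2 difference of -0.93, a 1.90-fold lower signal. *Mpo* encodes myeloperoxidase, the enzyme that makes hypochlorous acid from hydrogen peroxide and chloride. The brightest *Mpo* probe read 11.73, 11.81 and 11.83 in control tubes and 10.70, 11.11 and 10.82 with PTH. The groups did not overlap, and the mean fell from 11.79 ± 0.06 to 10.88 ± 0.21 (SD, n = 3 each), a log2 difference of -0.91 (SE 0.14, limma adjusted p = 0.0259). The other 3 *Mpo* probes passed as well, with log2 differences of -1.07, -1.22 and -0.99 (limma adjusted p = 0.00941, 0.0114 and 0.0135).

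*Prtn3* encodes proteinase 3, a serine protease of the azurophil granule. Its probe read 9.28, 9.38 and 9.14 in control tubes and 8.42, 8.44 and 8.40 with PTH. The PTH arrays lay close together below all control arrays, and the log2 difference was -0.85 (SE 0.12, limma adjusted p = 0.0193). *Ctsg* encodes cathepsin G, another serine protease of these granules. It read 9.33, 9.42 and 9.43 in control tubes and 8.38, 8.44 and 8.31 with PTH. The log2 difference of -1.02 (SE 0.12, limma adjusted p = 0.00774), or 2.03-fold lower with PTH, was the largest of the 9 members, and *Ctsg* stood at place 58 of 11979 genes ordered from the most lowered. *Mpo* stood at place 95 and *Prtn3* at place 126.

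*Elane*, the third serine protease of this group, could not be followed. Its only probe was above background on 0 of the 6 arrays. The deposited signal was 109, 133 and 103 in control tubes and 115, 105 and 127 with PTH, where the background of the arrays was between 99.4 and 114. The detection p ran from 0.132 to 0.608. No fold is given, and a probe at background does not show that the transcript was absent while its neighbour *Prtn3* was measured.

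The specific granule genes gave 3 calls of 4, against 1.04% of all genes tested, with a mean log2 difference of -0.74 (1.67-fold lower). *Ltf* encodes lactoferrin, which binds iron. It read 13.09, 13.17 and 12.95 in control tubes and 12.50, 12.35 and 12.22 with PTH. The groups did not overlap, and the log2 difference was -0.72 (SE 0.13, limma adjusted p = 0.0468), just inside the threshold. A dimmer *Ltf* probe gave -0.39 and was not called (limma adjusted p = 0.315). *Ltf* was called in 0 of the 6 fits that left out 1 array each, in which the limma adjusted p ran from 0.0872 to 0.168.

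*Ngp* encodes neutrophilic granule protein, a relative of the cathelicidins. It read 10.75, 10.86 and 10.88 in control tubes and 9.89, 10.04 and 9.93 with PTH. Every PTH array was below every control array, with a log2 difference of -0.88 (SE 0.12, limma adjusted p = 0.0150). *Lcn2* encodes lipocalin 2, which captures bacterial iron carriers and is also made by bone-forming cells. It read 11.26, 11.29 and 11.13 in control tubes and 10.34, 10.45 and 10.36 with PTH. These groups were separate too, and the log2 difference was -0.84 (SE 0.12, limma adjusted p = 0.0173).

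*Camp*, the gene of the cathelicidin antimicrobial peptide, did not pass the test. It read 10.48, 10.48 and 10.77 in control tubes and 9.97, 9.69 and 10.50 with PTH. PTH array 3 was above control arrays 1 and 2, and the PTH mean was 10.05 ± 0.41 against 10.58 ± 0.17 (SD, n = 3 each). The log2 difference was -0.52 (SE 0.21, 95% interval -1.02 to -0.02, limma adjusted p = 0.317).

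The cytosolic pair *S100a8* and *S100a9*, whose products join as calprotectin and bind calcium and zinc, gave the smallest mean change of the 3 groups at -0.51 (1.43-fold lower), and neither was called. *S100a8* read 14.69, 14.65 and 14.57 in control tubes and 14.10, 14.41 and 14.11 with PTH. *S100a9* read 13.13, 13.23 and 13.51 in control tubes and 12.54, 12.63 and 12.93 with PTH. Neither gene's groups overlapped, and PTH array 2 was the highest of its group for *S100a8* and PTH array 3 for *S100a9*. The log2 difference was -0.43 for *S100a8* (95% interval -0.74 to -0.12, limma adjusted p = 0.192) and -0.59 for *S100a9* (95% interval -0.96 to -0.22, limma adjusted p = 0.144). *S100a9* passed the test in 2 of 15 alternatives. These were signal without background correction (limma adjusted p = 0.00445) and background correction with an offset of 50 (limma adjusted p = 0.0382).

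**Figure D2:**
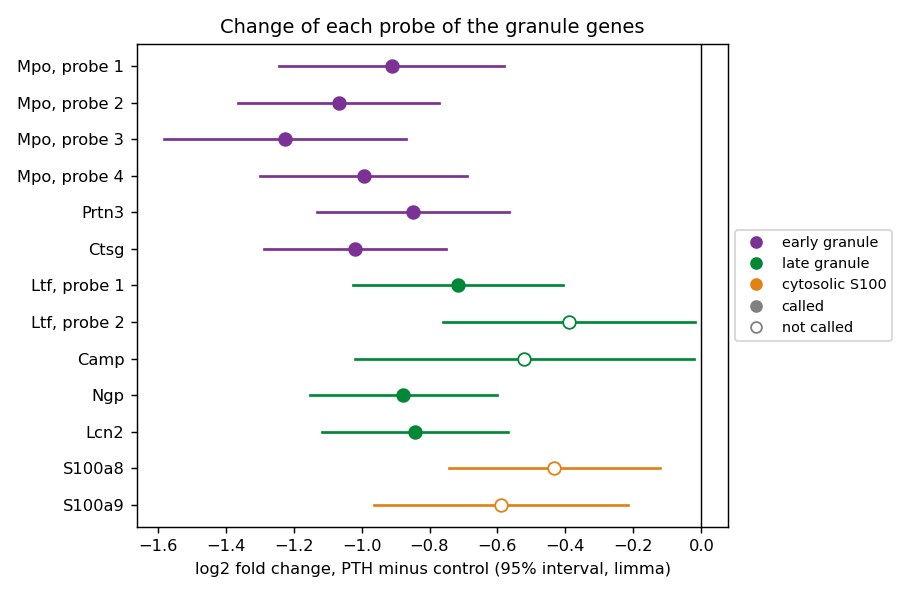
Log2 difference between PTH and control for each of the 13 tested probes of the granule genes, coloured by early, late or cytosolic group, with bars for 95% intervals from limma and filled points for called probes. All 13 lie below 0, and 9 were called.

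Over all probes, 13 of 14 were tested, 13 were lower on average, 12 had groups that did not overlap (10.5% of all probes tested had all PTH arrays lower), and 9 were called lower (0.993% of all probes). PTH array 3 was the brightest array as deposited, with a mean signal over the tested probes of 988 against 633 to 759 on the other arrays. In the signal before normalization *Camp*, *S100a8* and *S100a9* overlapped between the groups. *Mpo*, *Prtn3*, *Ctsg*, *Ltf*, *Ngp* and *Lcn2*, the 6 called genes, did not, and their control mean was 1.40 to 1.59 times the PTH mean on that scale. The share of all genes without overlap on that scale is not given, so this count describes these genes alone.

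Early and late genes were then set against each other. The mean difference of the early genes was larger than that of the specific granule genes by 0.19 on the log2 scale. That order holds for these members only. Among the other granule genes given below, the median was -0.14 for early genes and -0.37 for specific and gelatinase granule genes. Per array, the mean of *Mpo*, *Prtn3* and *Ctsg* minus the mean of *Ltf*, *Camp*, *Ngp* and *Lcn2* was -1.28, -1.25 and -1.30 in control tubes and -1.51, -1.30 and -1.57 with PTH. These values did not overlap, but PTH array 2 came within 0.00158 of the lowest control array. Only their change between groups can be read, since levels of different probes are not on one scale. With 1 gene left out at a time the early minus late difference ran from -0.23 to -0.11, and was smallest in size without *Camp*. Against *S100a8* and *S100a9* together with the specific granule genes the difference was -0.26, with control arrays from -2.17 to -2.07 and PTH arrays from -2.50 to -2.26. No test was made of these differences between groups of members. The difference turned to 0.07 when the detection filter was dropped, since *Elane*, at background, then counts among the early genes.

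**Figure D3:**
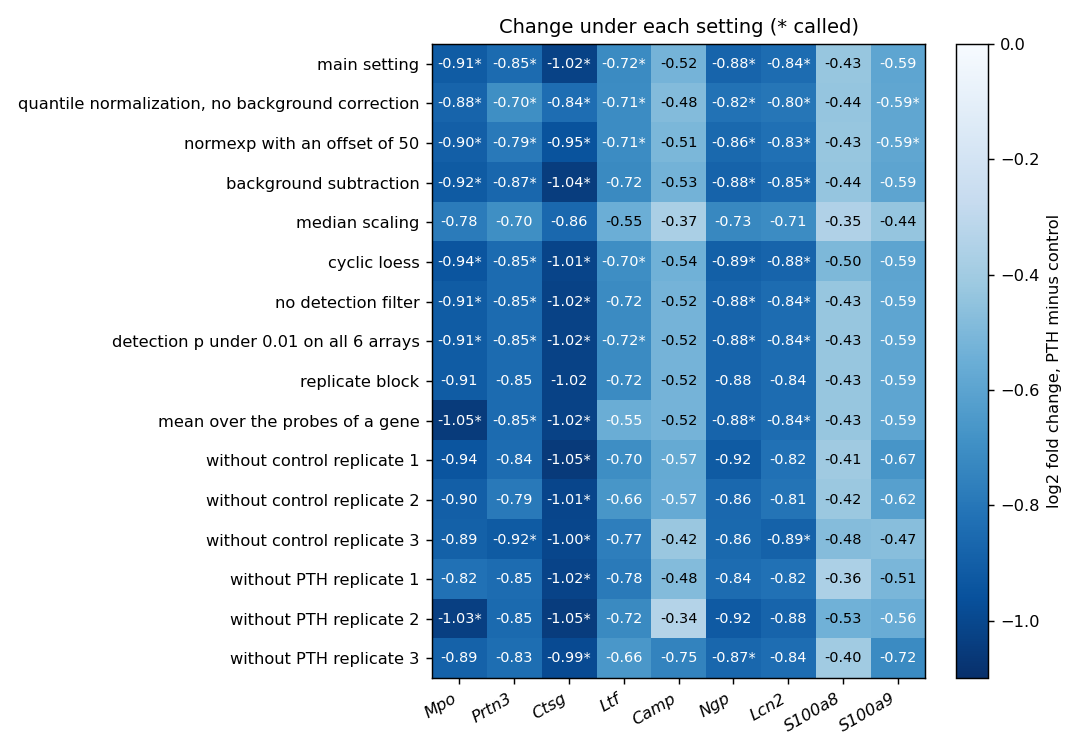
Log2 difference between PTH and control for each of the 9 tested genes (columns) as quantified here and under 15 alternatives (rows), with darker blue for a lower value with PTH and an asterisk for a called value. All values lie below 0, and 0 genes were called with median scaling or the replicate block.

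Other genes of the granules and of the neutrophil were followed as 7 lists, of which 57 genes were tested. Their means were lower with PTH for 39, where 49.2% of all genes tested were lower, and 7 were called lower and 1 higher, against 1.04% and 0.685% of all genes. Among the 7 other early granule genes the median was -0.14, where all genes had a median of 0.01 and a lower quartile of -0.16. In 4 of the 7 the PTH arrays were all lower than the control arrays, against 10.8% of all genes, and 1 was called. This was *Ms4a3*, a membrane protein of granulocyte precursors, which fell by 0.89 on the log2 scale (limma adjusted p = 0.0406). *Plac8* gave -0.59, and *Ctsc*, whose product activates the azurophil proteases, gave 0.48 (limma adjusted p = 0.116).

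Of the other specific and gelatinase granule genes, 14 of 16 were tested, with a median of -0.37. A lower mean was found for 11 and 4 were called lower, against 49.2% and 1.04% of all genes tested. The 4 called lower were *Retnlg*, a resistin-like protein (-1.01, limma adjusted p = 0.0105), *Hp*, the gene of haptoglobin, which binds free haemoglobin (-0.99, limma adjusted p = 0.0211), *Cd177*, a neutrophil surface and granule protein (-0.77, limma adjusted p = 0.0211), and *Mgst1*, a glutathione transferase (-0.69, limma adjusted p = 0.0409). *Mmp9*, gelatinase B, was called in the other direction. It rose from 11.86 ± 0.11 to 12.59 ± 0.14 (SD, n = 3 each), a log2 difference of 0.73 (limma adjusted p = 0.0433), with every PTH array above every control array. Gelatinase B is also an abundant product of osteoclasts, the cells that resorb bone. *Mmp8* and *Mmp25* were above background on no array.

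The inhibitors that hold granule proteases in check showed no call among 7 tested genes, with a median of -0.03. The largest differences were those of the stefins *Stfa3* (-0.80, limma adjusted p = 0.056) and *Stfa1* (-0.56, limma adjusted p = 0.0897) and of *Slpi*, an inhibitor of elastase (0.46, limma adjusted p = 0.172). *Stfa3* was above background on 3 control arrays and 1 PTH array, so it met the filter through the control arrays. The subunits of the NADPH oxidase, which supplies myeloperoxidase with hydrogen peroxide by way of superoxide, gave no call among 4 tested either. Their median was 0.06, with *Ncf1* at -0.56, *Ncf4* at 0.26 and *Cyba* at 0.20.

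Surface receptors of neutrophils had a median of -0.56 over 13 tested genes. Of these, 10 had a lower mean and 1 was called lower, against 49.2% and 1.04% of all genes tested. For 7 of the 13 the PTH arrays were all lower than the control arrays, against 10.8% of all genes. *Trem3*, an activating receptor of myeloid cells, fell by 0.92 on the log2 scale (limma adjusted p = 0.0178). *Csf3r*, the receptor of granulocyte colony-stimulating factor, gave -0.95 and did not pass the test (limma adjusted p = 0.155). Of the transcription factors of the granulocyte line, 7 were tested with a median of -0.25. *Gfi1*, a repressor needed for neutrophil maturation, fell by 0.93 (limma adjusted p = 0.0259). *Cebpe*, which drives specific granule genes, gave -0.50 and *Sfpi1*, the gene of PU.1, gave 0.52 (limma adjusted p = 0.127 and 0.122). The ligands that raise or retain neutrophils gave no call among 5 tested, with *Cxcl1* at 0.68 (limma adjusted p = 0.0557), *Il1b* at -0.63 and *Cxcl12* at -0.30.

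**Figure D4:**
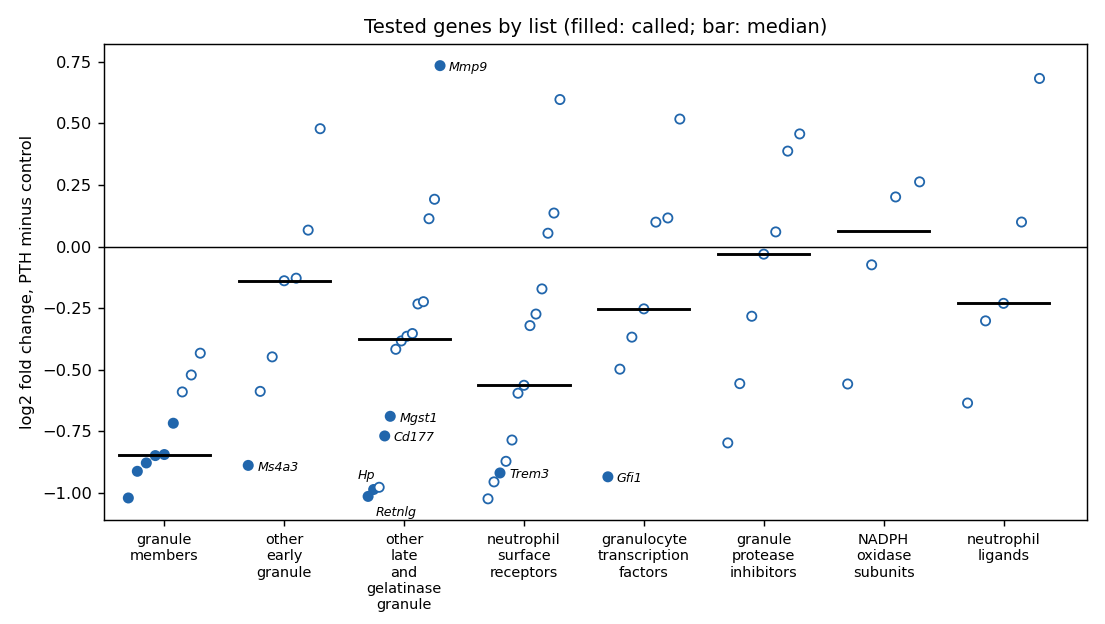
Log2 difference between PTH and control for each tested gene of the granule members and of the 7 lists, 1 column a list, with filled points for called genes and a bar at the median. The members lie between -1.02 and -0.43, and *Mmp9* is the 1 gene called higher.

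Markers of other cells moved between the same arrays. Of 6 neutrophil markers on the array, 5 were tested, and their summed normalized signal was between 36800 and 37500 in control tubes and between 24200 and 28800 with PTH. *S100a8* and *S100a9* made up 96.0% to 97.3% of that sum, so it restates these members. The other 3 tested, *Retnlg*, *Csf3r* and *Il8rb*, summed to 1400 to 1470 in control tubes and 663 to 785 with PTH, most of it *Retnlg*, the 1 marker called. For monocytes and macrophages 8 of 10 markers were tested, 7 had a lower mean and 0 were called, with a sum of 6420 to 6590 in control tubes and 5180 to 5490 with PTH. The largest differences among them were those of *Mrc1* (-0.80, limma adjusted p = 0.132), *C1qa* (-0.74, limma adjusted p = 0.169) and *C1qb* (-0.72, limma adjusted p = 0.0576). For 5 of the 8 the PTH arrays were all lower than the control arrays, against 10.8% of all genes. *Csf1r* and *Cd68* differed by -0.04 and -0.02 and *Cd14* by 0.39, and *Ccr2* and *Cd163* were above background on no array. For red cells 3 of 9 markers were tested and 2 were called lower, against 1.04% of all genes tested. The 3 tested summed to 8560 to 10000 in control tubes and 2360 to 2630 with PTH. The globin genes *Hba-a1* and *Hbb-b1* gave -1.98 and -1.89.

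The B cell markers *Cd79a* and *Ms4a1* were above background on no array, and the 3 tested markers of that list summed to 191 to 233 in control tubes and 172 to 234 with PTH. Eosinophil markers summed to 875 to 931 and 664 to 731, with 0 of 3 called, and megakaryocyte markers to 1040 to 1270 and 731 to 868, with 0 of 4 called. Of the basophil and mast cell list 1 gene was tested, *Mcpt8*, a serine protease of basophils, which rose by 1.35 on the log2 scale (limma adjusted p = 0.00293). *Cpa3*, *Mcpt4*, *Ms4a2* and *Fcer1a* of that list were above background on no array. None of the tested markers of T cells (1), progenitors (3), skeletal muscle (1) and endothelium (4) was called. Osteocyte and osteoblast markers, which give the labelled tissue, were tested for 11 of 13 genes, and *Dmp1*, *Mepe* and *Phex* were above background on all arrays. Another tested marker was above background on 3 control arrays and only 1 PTH array, and 2 of the 13 were above background on no array. The sum of the 11 tested markers was also lower with PTH, at 40700 to 42600 in control tubes and 26500 to 28500 with PTH. Of the 11, *Ibsp*, *Mepe* and *Sp7* were called lower, against 1.04% of all genes tested. The part of any of these cells in the granule gene result was not tested.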

How the data were processed

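Biotin-labelled RNA of 6 bone tube preparations was read on Illumina bead arrays. The authors deposited linear signal intensities for 45281 probes, neither normalized nor background subtracted, and beside each a detection p-value against negative controls. The submitters' processing notes name GenomeStudio, with no version, and all per-sample columns were used. Groups came from the sample labels.

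Signals were processed by the neqc function of limma 3.58.1 in R 4.3.3 (normexp background from the detection p-values, offset 16, quantile normalization, log2). The groups were compared by lmFit and eBayes, two-sided, with Benjamini-Hochberg adjustment over the 16214 probes with a detection p under 0.05 on at least 3 arrays. A gene was read by its brightest probe. The number of arrays limits the precision. The procedure was tested on simulated data, in which small changes were often missed. Quantile normalization evens out differences in total brightness, and one array was brighter than the rest.

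The members and lists were chosen with earlier results of these data known. All members were named. Of every other list the called genes were named, and up to 3 with the largest difference, except for genes withheld here, which are not reported. Promoters were those of RefSeq, GRCm38.p6, in which all 10 members were matched, and older array symbols were kept. Alternatives were quantile normalization without background correction, an offset of 50, background subtraction, cyclic loess, median scaling, a stricter detection filter (p under 0.01 on every array) or none, the replicate number as a block, the mean over probes, other thresholds and each array left out in turn.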

Additional observations from a re-analysis of the deposited data

How the results depend on the processing

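The 9 tested members kept a lower mean with PTH under every alternative run, and the number called, 6, depended on the setting. It was 7 with quantile normalization alone or an offset of 50, where 77 and 155 of 11979 genes were called lower. The member count was 5 with background subtraction (103 of 11979 genes), no detection filter (96 of 31508) or the mean over probes (149 of 11979). It was 6 with cyclic loess (139 of 11979) or stricter detection (155 of 8676). With median scaling the member count was 0 (5 at an unadjusted p under 0.05 with limma, adjusted p from 0.167 to 0.978), and 41 of 11979 genes were called lower. There the median of all genes moved to 0.12 and that of the members was -0.70, or -0.81 relative to that shift. The replicate number as a block gave 0 calls as well (7 at an unadjusted p under 0.05, limma adjusted p from 0.051 to 0.209), and genes called overall went from 125 lower and 82 higher to 25 and 19. The labels do not say that same-numbered arrays were paired, and the main fit took no pairs. Deviations of same-numbered arrays correlated at 0.067, 0.064 and 0.27 over 16214 probes, and only number 3 correlated best with its own. Arrays numbered 3 correlated at -0.14 to -0.13 with those of other numbers. The count of probes above background went with the number. It was 15758 and 15504 for control and PTH arrays numbered 1, 16451 and 16352 for 2, and 17369 and 17374 for 3. Whether same-numbered arrays were prepared together was not tested. Leaving out 1 array at a time left 1 to 3 members called, and 28 to 54 of all genes called lower. The member count was 1 without control replicate 1, control replicate 2 or PTH replicate 1, 2 without PTH replicate 2 or 3, and 3 without control replicate 3. *Ctsg* was called in 6 of 6 of these fits (limma adjusted p from 0.0294 to 0.0424). The fewer arrays lower the power by construction, and a cause beyond that was not tested.

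The member median of -0.84 became -0.71 with quantile normalization alone, -0.79 with an offset of 50 and -0.78 with no detection filter, and ran from -0.86 to -0.79 with 1 array left out. The early minus late difference of -0.19 reversed to 0.0697 with no detection filter, by the entry of *Elane* at background. It ran from -0.26 to -0.12 with 1 array left out and from -0.27 to -0.10 under the other alternatives. The slide of each array is not named in the labels or columns used here, so a slide block was not run.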

Other observations

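The 5 other genes whose values over the 6 arrays were most like the mean of the 9 granule genes, by Pearson correlation, were *Dysf* (0.999), *Ccrk*, now *Cdk20* (0.9967), *Hk3* (0.9965), *Rgs3* (0.9962) and *Panx3* (0.9952). *Hk3* is a hexokinase of myeloid cells and *Panx3* a channel protein of bone and cartilage cells. Their log2 differences between PTH and control were -1.01, -1.29, -0.71, -1.36 and -1.84 in that order. All of these points share the 6 arrays and the split between groups, so the correlations describe that split and carry no p.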
